A study of Mus musculus with 36 samples.

Results

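The 10 genes described here encode the machinery by which mouse cells sense oxygen through the hypoxia-inducible factors (HIFs), together with a pair of classical HIF targets. They were taken by symbol from the gene table (Hif1a, Epas1, Arnt, Vhl, Egln1, Egln2, Egln3, Hif1an, Car9 and Ndrg1), all 10 symbols were found among 14761 genes, and all 10 passed the filter on low values. RNA was sequenced from mouse embryonic fibroblast (MEF) lines lacking a mitofusin, the GTPases that fuse the outer mitochondrial membrane, and from wild-type (WT) MEFs. Mfn1-/- MEFs were sampled at day -2 (confluence), day 0 (start of adipogenic differentiation), day +3 and day +8 beside WT libraries A to C of the same days. Mfn2-/- MEFs were sampled at day -2 and day +8 beside WT libraries D to F. Each of the 12 groups held 3 libraries that the labels call independent biological replicates. All lines received the same cocktail on day 0 (rosiglitazone, IBMX, dexamethasone, insulin, D-pantothenic acid and biotin), without IBMX and dexamethasone again on days +2, +4 and +6, and all were kept in 20% O2 and 5% CO2. Oxygen at the cells was not measured. Each genotype is a single repository line, so genotype and line cannot be told apart, and the replicates measure the spread between cultures of 1 line.

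HIF is a pair of an alpha and a beta subunit that binds DNA at a short core motif and switches on genes for glycolysis, angiogenesis, pH control and mitochondrial turnover. When oxygen is present, prolyl hydroxylases of the EGLN family mark the alpha subunit, the VHL ubiquitin ligase recognises the mark, and the protein is degraded, while the asparaginyl hydroxylase FIH (Hif1an) blocks its transactivation domain. This control acts on protein, which was not measured here, so every value below is of messenger RNA. In expanding adipose tissue HIF activity is known for its part in the response to poor oxygen supply.

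Promoter windows are shown for Hif1a, Egln1 and Egln3, the members called in Mfn1-/- MEFs at day 0, and for Car9, the member with the largest fold change. Each runs from 250 bases before to 50 bases after the RefSeq start (GRCm38.p6), in the direction of transcription, and capitals mark the HIF core, ACGTG or GCGTG on either strand (CACGT or CACGC where it lies on the other strand). The Hif1a window (chr12:73907617-73907916, plus strand) starts inside the gene's annotated interval and holds 3 cores, of which the palindrome CACGTG counts on both strands. The Egln1 window (chr8:124949205-124949504, minus strand) holds 2, the Egln3 window (chr12:54203825-54204124, minus strand) 1 and the Car9 window (chr4:43506776-43507075, plus strand) 1, on the other strand.
Hif1a: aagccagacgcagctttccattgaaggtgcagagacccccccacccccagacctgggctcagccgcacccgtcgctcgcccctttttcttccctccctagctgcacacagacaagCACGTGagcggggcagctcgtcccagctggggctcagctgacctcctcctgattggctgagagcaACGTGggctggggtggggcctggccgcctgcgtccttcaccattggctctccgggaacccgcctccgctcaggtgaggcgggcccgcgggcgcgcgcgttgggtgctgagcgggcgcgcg
Egln1: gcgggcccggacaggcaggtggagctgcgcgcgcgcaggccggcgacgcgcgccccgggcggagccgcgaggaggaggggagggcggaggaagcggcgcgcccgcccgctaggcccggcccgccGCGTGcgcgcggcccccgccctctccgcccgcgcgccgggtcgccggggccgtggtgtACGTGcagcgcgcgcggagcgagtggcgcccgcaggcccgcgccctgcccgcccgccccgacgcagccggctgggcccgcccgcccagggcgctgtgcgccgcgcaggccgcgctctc
Egln3: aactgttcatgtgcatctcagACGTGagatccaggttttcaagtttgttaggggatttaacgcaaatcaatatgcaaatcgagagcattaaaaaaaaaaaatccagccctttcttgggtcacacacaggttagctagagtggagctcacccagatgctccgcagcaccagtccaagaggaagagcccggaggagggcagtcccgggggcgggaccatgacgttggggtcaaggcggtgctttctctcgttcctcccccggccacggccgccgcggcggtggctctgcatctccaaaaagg
Car9: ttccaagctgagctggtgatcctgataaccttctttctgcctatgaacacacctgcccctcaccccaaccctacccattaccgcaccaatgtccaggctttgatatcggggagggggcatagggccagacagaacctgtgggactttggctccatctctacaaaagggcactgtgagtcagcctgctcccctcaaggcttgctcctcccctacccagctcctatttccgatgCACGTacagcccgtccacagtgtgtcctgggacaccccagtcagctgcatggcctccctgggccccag
A core is common: 43.8% of 32851 promoter windows of the same length held at least 1, 20.6% at least 2 and 8.93% at least 3. Of the 8 members with a window, Arnt held 1 core, the start sites of Egln2 held 1 and 6, and Vhl and Hif1an held none of these letters. A match is a description of the letters and not a site of HIF binding. Epas1 and Ndrg1 were not matched to a window.

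Whole-series facts that touch these genes are as follows. Libraries held 8800674 to 37011894 reads assigned to genes, recovered from the deposited normalised counts. In Mfn1-/- MEFs, Mfn1 RNA averaged 172 ± 14.2 normalised counts at day -2, against 1342 ± 99.5 in WT MEFs (SD, n = 3 each), and it was also lower at days 0 and +3. At day +8, however, Mfn1 averaged 851 ± 266 in the libraries labelled Mfn1-/-, against 859.8 ± 52.0 in WT libraries A to C (log2 fold change -0.06, adjusted p = 0.745), so the RNA of the targeted gene does not bear out that label. Col1a2 did run with the label. It averaged 13239 in the libraries labelled Mfn1-/- at day +8, against 153376 in WT MEFs, and 23747 in Mfn1-/- MEFs at day -2, against 151992 in WT MEFs. Col1a1 did not, at 66116 against 146363 in WT MEFs at day +8 and 156007 against 151635 at day -2. Mfn2 averaged 226 ± 12.7 in Mfn2-/- MEFs and 942 ± 35.2 in WT MEFs at day -2, and 245 ± 51.1 in Mfn2-/- MEFs and 964 ± 46.8 in WT MEFs at day +8. Of the fibroblast markers, 9 of 10 were in the table and none was at 0 in any group, although Col1a2 averaged 149 in Mfn2-/- MEFs at day -2, against 73593 in WT MEFs. The summed mesothelial markers (7 of 8 in the table, with none at 0 in Mfn2-/- MEFs) lay at 32877 to 36717 normalised counts in Mfn2-/- MEFs at day -2, against 1313 to 1380 in WT MEFs, where 1 of them was at 0. At day +8 they lay at 14531 to 15027 in Mfn2-/- MEFs and 259 to 351 in WT MEFs. In Mfn1-/- MEFs 6 of these 7 were called higher at days -2 and 0 and 4 at day +3, as were 4 in the libraries labelled Mfn1-/- at day +8. Of the 7, 1 was called lower on each of days -2, 0 and +8. Msln, the largest of them in WT MEFs, averaged 1403 against 3727 in WT MEFs at day -2 and 891 against 3463 at day 0. At day +8 Msln averaged 159 under the Mfn1-/- label, against 626 in WT MEFs. The sums overlapped those of WT MEFs at day -2 (2406 to 4406 in Mfn1-/- MEFs, 2831 to 4609 in WT MEFs). The summed adipocyte markers (5 of 10 in the table) lay at 2668 to 6044 in Mfn1-/- MEFs at day -2, against 281 to 380 in WT MEFs. At day 0 they lay at 11391 to 14214 in Mfn1-/- MEFs, against 654 to 859 in WT MEFs. Most of these Mfn1-/- sums was Lpl, which averaged 3241 at day -2 and 11166 at day 0. Fabp4 went the other way, at 26.1 against 56.8 in WT MEFs at day -2 and 74.2 against 213 at day 0. Of the 5, 3 were called higher and 0 lower at day -2, and 3 and 1 at day 0. In Mfn2-/- MEFs at day -2, where 2 of the 5 (Fabp4 and Pparg) were at 0, the sums lay at 1371 to 1587, against 169.8 to 182 in WT MEFs. Lpl alone averaged 1378 there, and 3 of the 5 were called higher and 2 lower. At day +8, with no adipocyte marker at 0, the sums lay at 163794 to 185768 in the libraries labelled Mfn1-/-, against 11157 to 14385 in their WT libraries. They lay at 1603 to 1799 in Mfn2-/- MEFs on that day, against 21317 to 42785 in WT libraries D to F. Their part in the results below was not tested.

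A gene was called where its adjusted p was under 0.01, with Benjamini-Hochberg adjustment over all 14293 genes tested, and fold changes are on the log2(normalised count + 1) scale, which understates the change of low genes such as Epas1 and Car9. In Mfn1-/- MEFs 1 of the 10 genes was called at day -2 (Hif1a, higher), where 22.4% of all genes tested were called. At day 0, 3 were called higher (Hif1a, Egln1 and Egln3), against 21.5% of all genes. At day +3 none was called, against 21.5% of all genes. There, 4 members had an unadjusted p under 0.05 by limma, and edgeR and DESeq2 called 1 each. At day +8, 5 were called higher in the libraries labelled Mfn1-/- (Car9, Egln3, Epas1, Egln1 and Ndrg1), where 50.2% of all genes were called, so the share of members was that of the table. In Mfn2-/- MEFs 7 of the 10 were called at day -2, all higher (Epas1, Car9, Egln3, Ndrg1, Hif1an, Egln2 and Arnt), against 35.5% of all genes, and 5 were called at day +8, against 38.1% of all genes (Epas1, Car9, Egln3 and Ndrg1 higher and Hif1a lower). The median log2 fold change of the members was 1.07 at day +8 in the libraries labelled Mfn1-/- and 0.77 at day -2 in Mfn2-/- MEFs, where the medians of all genes tested were -0.07 and -0.02. Vhl was not called in any of the 6 comparisons.

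**Figure D1:**
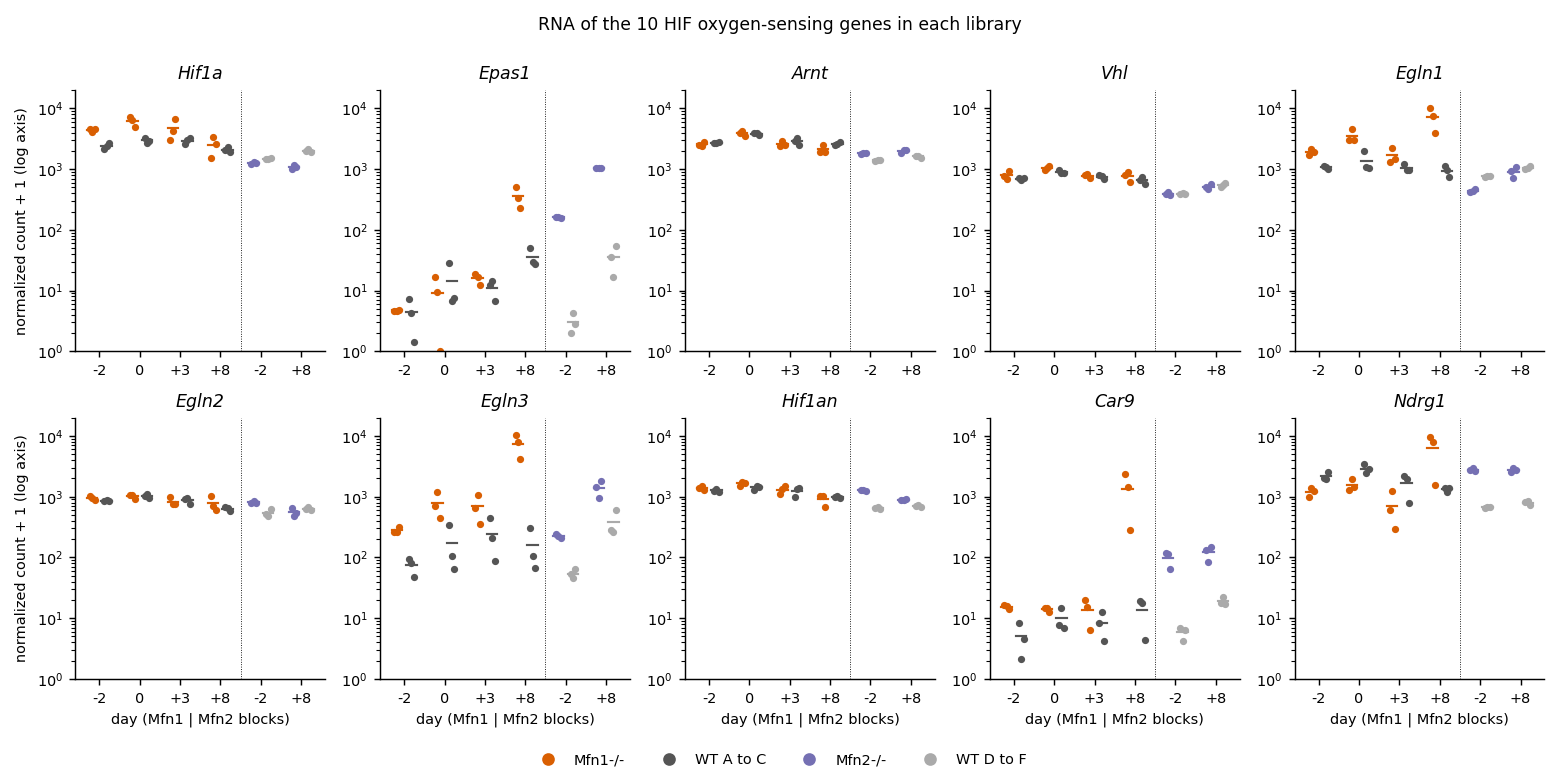
Normalised count + 1 (log axis) of each of the 10 genes in each library, by day, with Mfn1-/- and WT libraries A to C left of the dotted line and Mfn2-/- and WT libraries D to F right of it. Points are libraries and bars are group means. Epas1 and Car9 span the widest range. On this scale, set separately in each block of libraries, the 12 group means run from 1397 to 3914 for Arnt and from 392 to 1055 for Vhl.

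Of the alpha subunits, Hif1a encodes the HIF-1 alpha protein (ENSMUSG00000021109, chr12:73901375-73947530 in GRCm38). At day -2 it had 4501, 4013 and 4555 normalised counts in Mfn1-/- libraries A to C, against 2159, 2420 and 2696 in WT libraries A to C. At day 0 it had 7092, 6422 and 5022 in Mfn1-/- MEFs, against 3230, 2736 and 2957 in WT MEFs. On both days every Mfn1-/- library lay above every WT library. Hif1a was 1.80 times as high in Mfn1-/- MEFs at day -2 (0.85 ± 0.20 SE on the log2 scale, adjusted p = 0.00158) and 2.08 times as high at day 0 (1.04 ± 0.20, adjusted p = 0.00016). Without WT library A the day -2 call was lost (adjusted p = 0.0121, over alternatives 0.000239 to 0.0121). At day +3 the libraries spread widely (3068, 4313 and 6633 in Mfn1-/- MEFs, 2623, 2966 and 3271 in WT MEFs), the groups overlapped, and the log2 fold change of 0.60 was not called (adjusted p = 0.0242). At day +8 the groups overlapped again, with 1502, 3401 and 2603 in those labelled Mfn1-/-, against 2037, 2345 and 1913 in WT libraries A to C (log2 fold change 0.18, adjusted p = 0.455).

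In Mfn2-/- MEFs Hif1a had 1226, 1288 and 1277 normalised counts at day -2, against 1471, 1482 and 1508 in WT libraries D to F. The groups did not overlap, but the log2 fold change of -0.23 did not pass the test (adjusted p = 0.370). In a fit of these 6 libraries alone Hif1a was called lower (adjusted p = 0.000313, over alternatives 0.000313 to 0.504). At day +8 Hif1a had 1022, 1161 and 1078 in Mfn2-/- MEFs, against 1991, 2143 and 1898 in WT MEFs. All Mfn2-/- libraries lay below all WT libraries, and Hif1a was called lower (log2 fold change -0.89 ± 0.20, adjusted p = 0.000547). Leaving the alternatives aside, it was the only member called lower against WT in any of the 6 comparisons. The lines were scaled separately, so the level of Hif1a in one knockout line was not tested against that in the other. Gm15283, annotated on the opposite strand, covers 5.60% of the exon bases of Hif1a, and the library kit was not stated to keep strand, so reads there cannot be assigned to either gene.

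Epas1 encodes HIF-2 alpha, the alpha subunit best known from endothelium, lung and erythropoietin-producing cells (ENSMUSG00000024140, chr17:86753700-86833410). It was almost silent in WT MEFs before differentiation. At day -2 it had 163, 162 and 156 normalised counts in Mfn2-/- MEFs, against 0.973, 3.22 and 1.81 in WT libraries D to F. Thus 479 reads in 3 Mfn2-/- libraries stood against 6 reads in 3 WT libraries, a depth-scaled ratio of 81.9 with a 95% exact interval of 37.3 to 224 that covers counting error only. The log2 fold change was 5.82 ± 0.67 (adjusted p = 1.69e-08). At day +8 Epas1 had 1035, 1025 and 1054 in Mfn2-/- MEFs, against 34.2, 15.9 and 53.2 in WT MEFs (log2 fold change 5.03 ± 0.67, adjusted p = 2.77e-07, 30.2 times the WT mean). The 3 Mfn2-/- libraries differed from each other far less than from WT on both days. Among the endothelial markers in the table, Kdr averaged 685 in Mfn2-/- MEFs at day -2 and 0.973 in WT MEFs, whereas Vwf averaged 0.958 in Mfn2-/- MEFs and 1.79 in WT MEFs.

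In Mfn1-/- MEFs Epas1 was near the limit of counting at the outset, with 3.61, 3.68 and 3.87 normalised counts at day -2, against 6.37, 3.34 and 0.434 in WT libraries A to C. These are 9 reads in Mfn1-/- MEFs and 10 in WT MEFs (ratio 1.54, 95% exact interval 0.554 to 4.22), so no difference was detectable at this depth. At day 0 it had 16.0, 8.38 and 0 in Mfn1-/- MEFs, the 0 allowing up to 3 reads in that library, against 27.4, 5.79 and 6.65 in WT MEFs. At day +3 it had 17.8, 15.8 and 11.5 in Mfn1-/- MEFs, against 11.6, 13.2 and 5.62 in WT MEFs, and neither day was called. By day +8 Epas1 stood at 507, 338 and 231 in the libraries labelled Mfn1-/-, against 49.8, 28.9 and 26.7 in WT MEFs. All 3 lay above all WT libraries (log2 fold change 3.30 ± 0.67, adjusted p = 0.000107, 10.2 times the WT mean). These cultures also differed in their adipocyte markers, as given above, and in bulk RNA fewer cells of a type and less RNA per cell cannot be told apart.

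Per kilobase of exon, Epas1 made up 50.2% ± 1.78 of the summed alpha subunit RNA in Mfn2-/- MEFs at day +8, against 1.81% ± 1.05 in WT libraries D to F (SD, n = 3 each). On the normalised count per kilobase scale, the levels in Mfn2-/- MEFs were then 186 for Epas1 and 184 for Hif1a. At day -2 the share was 11.8% ± 0.433 in Mfn2-/- MEFs and 0.142% ± 0.0807 in WT MEFs. In the libraries labelled Mfn1-/- at day +8 it was 14.8% ± 9.96, with the libraries between 8.55% and 26.3%, against 1.75% ± 0.668 in WT libraries A to C. In undifferentiated Mfn1-/- MEFs it was 0.0902% ± 0.00607, and in their WT libraries 0.158% ± 0.147. The alpha pair was therefore almost all Hif1a in Mfn1-/- and WT MEFs before differentiation, and evenly divided in Mfn2-/- MEFs at day +8. These shares are descriptions and were not tested.

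**Figure D2:**
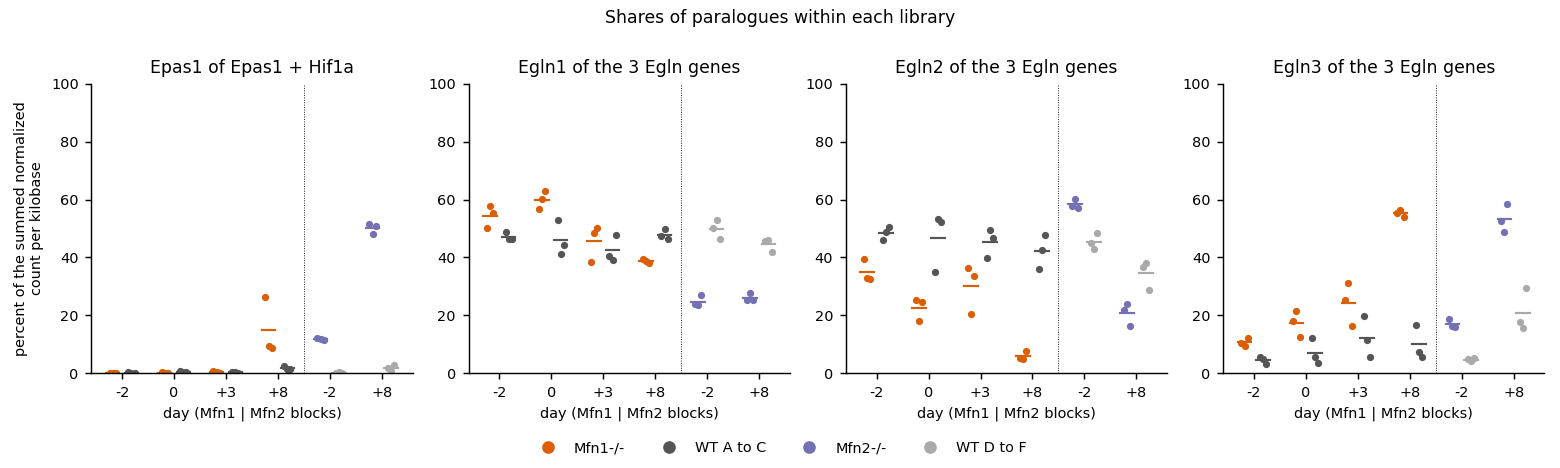
Share of each gene in the summed normalised count per kilobase of its paralogues, in percent, for Epas1 (of Epas1 and Hif1a) and for Egln1, Egln2 and Egln3 (of the 3), by day and line. Points are libraries and bars are means. The Mfn2-/- libraries sit near 50% for Epas1 at day +8, and both knockout lines sit above 48% for Egln3 at day +8.

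Arnt encodes the constitutive beta subunit with which either alpha subunit pairs (ENSMUSG00000015522, chr3:95434388-95497240). At day -2 it had 1797, 1860 and 1812 normalised counts in Mfn2-/- MEFs, against 1370, 1427 and 1392 in WT MEFs. The groups did not overlap and Arnt was called higher (log2 fold change 0.38 ± 0.11, adjusted p = 0.00342), a difference of 1.31 times. The call was lost under 5 alternatives, with adjusted p up to 0.0413, the value against all 6 WT libraries of the day. On values rescaled across all 36 libraries Arnt averaged 2534 in Mfn2-/- MEFs at day -2. WT libraries D to F averaged 1939 and A to C 2367 on that scale. At day +8 Arnt had 1846, 2032 and 2061 in Mfn2-/- MEFs, against 1669, 1666 and 1532 in WT MEFs (log2 fold change 0.29, adjusted p = 0.0254). Arnt passed there on the rescaled values (adjusted p = 0.00937) and in a fit of these libraries alone (0.00182). Its log2 fold changes in Mfn1-/- MEFs of -0.08, 0.04 and -0.15 at days -2, 0 and +3 and of -0.31 in the libraries so labelled at day +8 did not pass the test (adjusted p = 0.590, 0.828, 0.310 and 0.0127). Hif1a per Arnt, on the per-kilobase scale, was 2.31 ± 0.118 in Mfn1-/- MEFs at day -2 and 1.21 ± 0.114 in WT MEFs. It was 0.941 ± 0.0155 in Mfn2-/- MEFs at day -2, against 1.45 ± 0.0321 in WT MEFs.

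Vhl encodes the substrate receptor of the ubiquitin ligase that destroys hydroxylated HIF alpha (ENSMUSG00000033933, chr6:113623959-113631633). It had 767, 696 and 922 normalised counts in Mfn1-/- MEFs at day -2, against 721, 653 and 714 in WT MEFs. At day -2 Mfn2-/- MEFs had 382, 421 and 378, against 381, 399 and 396 in WT MEFs, a log2 fold change of 0.00 ± 0.12. Both pairs of groups overlapped. Over the 6 comparisons its log2 fold changes ran between -0.09 and 0.23, each with an SE of 0.12.

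The oxygen sensors differed more. Egln1 encodes PHD2, the main prolyl hydroxylase acting on HIF-1 alpha in normoxia (ENSMUSG00000031987, chr8:124908587-124949324). At day -2 it had 1700, 2126 and 1920 normalised counts in Mfn1-/- MEFs, against 1141, 1076 and 987 in WT MEFs. These groups did not overlap, yet the log2 fold change of 0.84 ± 0.25 just missed the threshold (adjusted p = 0.0104). Egln1 passed in a fit of these libraries alone (adjusted p = 0.000511) and with DESeq2 (0.00427). At day 0 Egln1 had 3019, 4561 and 3010 in Mfn1-/- MEFs, against 2022, 1083 and 1044 in WT MEFs, and it was called (log2 fold change 1.39 ± 0.25, adjusted p = 6.53e-05). At day +3 it had 1332, 2263 and 1464 in Mfn1-/- MEFs, against 1211, 958 and 981 in WT MEFs (log2 fold change 0.65, adjusted p = 0.0471). By day +8 Egln1 stood at 9992, 7376 and 3909 in the libraries labelled Mfn1-/-, against 1141, 965 and 733 in WT MEFs. The lowest of them was well above the highest WT library, and the log2 fold change was 2.83 ± 0.25 (adjusted p = 1.17e-10).

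In Mfn2-/- MEFs the difference in Egln1 had the opposite sign at day -2, where it had 421, 431 and 469 normalised counts, against 754, 763 and 769 in WT libraries D to F. The groups were far apart in relation to their spread, but with the spread shared over all 36 libraries the log2 fold change of -0.79 ± 0.25 missed the threshold (adjusted p = 0.0106). Egln1 was called lower in a fit of these 6 libraries alone (adjusted p = 8.98e-09), against all 6 WT libraries (0.00821) and with DESeq2 (0.0072). At day +8 it had 947, 723 and 1066 in Mfn2-/- MEFs, against 996, 1036 and 1146 in WT MEFs (log2 fold change -0.23, adjusted p = 0.465). The knockout effects of the lines differed from each other by 1.63 ± 0.36 on the log2 scale at day -2 (Mfn1-/- minus Mfn2-/-, adjusted p = 0.000649) and by 3.06 ± 0.36 at day +8 (adjusted p = 3.31e-08).

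Egln3 encodes PHD3, an inducible hydroxylase that is itself a HIF target (ENSMUSG00000035105, chr12:54178981-54203860). Undifferentiated Mfn1-/- MEFs (day -2) had 264, 259 and 311 normalised counts of it, against 94.6, 81.3 and 47.3 in WT MEFs (log2 fold change 1.94 ± 0.58, adjusted p = 0.0108). Egln3 passed there under 5 alternatives (adjusted p over alternatives 0.000521 to 0.0561). At day 0 it had 712, 1212 and 439 in Mfn1-/- MEFs, against 347, 105 and 62.5 in WT MEFs, and was called (log2 fold change 2.45 ± 0.58, adjusted p = 0.00171). No Mfn1-/- library fell into the WT range on these days. The day 0 call was lost in a fit of its own 6 libraries (adjusted p = 0.0259), without Mfn1-/- library B (0.0176) and without WT library B (0.0108) or C (0.0229), and the range over alternatives was 0.000161 to 0.0259. At day +3 the groups overlapped, with 645, 1079 and 351 in Mfn1-/- MEFs and 437, 208 and 85.8 in WT MEFs (log2 fold change 1.65, adjusted p = 0.0304). By day +8 Egln3 stood at 10335, 7910 and 4098 in the libraries labelled Mfn1-/-, against 299, 106 and 66.0 in WT MEFs. This was 47.4 times the WT mean (log2 fold change 5.75 ± 0.58, adjusted p = 2.86e-09). WT library C had the lowest Egln3 of its group on all 4 days, as did library C of the Mfn1-/- line on days 0, +3 and +8.

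In Mfn2-/- MEFs Egln3 had 244, 222 and 208 normalised counts at day -2, against 52.5, 44.1 and 63.4 in WT MEFs (log2 fold change 2.07 ± 0.58, adjusted p = 0.00452). The day +8 values were 1462, 947 and 1822 in Mfn2-/- MEFs, against 285, 262 and 597 in WT MEFs (log2 fold change 1.94 ± 0.58, adjusted p = 0.00697). On both days the Mfn2-/- libraries lay above all WT libraries. Both calls stood near the threshold: leaving out 1 library ended the day -2 call in 5 cases (adjusted p up to 0.0198) and the day +8 call in 4 (up to 0.0348), and a fit of the 6 libraries alone ended the day +8 call as well (0.0106). At day -2 the Egln3 effects of the lines differed by -0.12 ± 0.82 on the log2 scale (adjusted p = 0.927), an SE too wide to call them alike.

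Egln2 encodes PHD1, the prolyl hydroxylase found mainly in the nucleus (ENSMUSG00000058709, chr7:27158658-27166802). It had 797, 861 and 776 normalised counts in Mfn2-/- MEFs at day -2, against 526, 482 and 626 in WT MEFs, and was called higher (log2 fold change 0.58 ± 0.14, adjusted p = 0.00112), though not without WT library E (adjusted p = 0.0123). Egln2 then had 641, 486 and 535 in Mfn2-/- MEFs at day +8, against 619, 667 and 614 in WT MEFs (log2 fold change -0.20, adjusted p = 0.248). Its log2 fold changes in Mfn1-/- MEFs of 0.16, -0.03 and -0.08 at days -2, 0 and +3 and 0.26 at day +8 under that label were not called. Hif1an encodes the asparaginyl hydroxylase FIH (ENSMUSG00000036450, chr19:44562850-44576274). At day -2 it had 1286, 1296 and 1233 in Mfn2-/- MEFs, against 650.0, 681 and 629 in WT MEFs, so that every Mfn2-/- library was above every WT library by a wide margin. It was 1.95 times as high (log2 fold change 0.96 ± 0.13, adjusted p = 1.94e-07). At day +8 it had 876, 874 and 932 in Mfn2-/- MEFs, against 704, 729 and 681 in WT MEFs (log2 fold change 0.34, adjusted p = 0.0255). It passed in a fit of these libraries alone (adjusted p = 0.00054). Hif1an was not called in the Mfn1-/- line, with 1416, 1528 and 1291 in Mfn1-/- MEFs at day -2, against 1252, 1356 and 1203 in WT MEFs.

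The shares of the prolyl hydroxylase messages are given as a description and were not tested. Per kilobase, Egln3 made up 55.2% ± 1.12 of the summed RNA of the 3 Egln genes in the libraries labelled Mfn1-/- at day +8, against 9.93% ± 5.94 in WT libraries A to C. It made up 53.3% ± 4.86 in Mfn2-/- MEFs at day +8, against 20.95% ± 7.39 in WT libraries D to F. At day -2 it made up 10.7% ± 1.32 in Mfn1-/- MEFs and 4.39% ± 1.26 in WT MEFs, and 17.0% ± 1.35 in Mfn2-/- MEFs and 4.67% ± 0.519 in WT MEFs. The Egln2 share was 5.87% ± 1.60 in the libraries labelled Mfn1-/- at day +8, against 42.2% ± 5.94 in WT MEFs. The Egln1 share was 24.7% ± 1.87 in Mfn2-/- MEFs at day -2, against 49.9% ± 3.31 in WT MEFs. At day +8 Egln3 thus had the largest share of the 3 in both lines, followed by Egln1 at 38.9% ± 0.683 in the libraries labelled Mfn1-/- and 26.0% ± 1.29 in Mfn2-/- MEFs.

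Of the targets, Car9 encodes the cell-surface carbonic anhydrase IX, which acidifies the extracellular space and is nearly silent in most normoxic cells (ENSMUSG00000028463, chr4:43506966-43513729). Before differentiation it had 15.6, 14.7 and 12.9 normalised counts in Mfn1-/- MEFs (day -2), against 7.44, 1.11 and 3.47 in WT MEFs. These are 35 and 16 reads (ratio 3.74, 95% exact interval 2.02 to 7.24), the groups did not overlap, and the log2 fold change of 1.84 was not called (adjusted p = 0.0172). At day 0 it had 13.8, 14.0 and 11.5 in Mfn1-/- MEFs, against 6.84, 13.9 and 5.99 in WT MEFs, and at day +3 18.9, 14.5 and 5.31 in Mfn1-/- MEFs, against 7.37, 11.4 and 3.21 in WT MEFs. Both pairs of groups overlapped. At day +8 Car9 had 2348, 1444 and 285 in the libraries labelled Mfn1-/-, against 18.1, 16.8 and 3.33 in WT MEFs. This was the widest difference of any member, 106.7 times the WT mean (log2 fold change 6.44 ± 0.60, adjusted p = 1.78e-10).

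In Mfn2-/- MEFs Car9 was already up before differentiation, with 118, 114 and 63.8 normalised counts at day -2, against 5.84, 3.22 and 5.43 in WT MEFs. These are 297 and 15 reads (ratio 20.3, 95% exact interval 12.1 to 36.7; log2 fold change 4.07 ± 0.60, adjusted p = 1.19e-06). The day +8 values were 129.7, 84.4 and 145 in Mfn2-/- MEFs, against 17.1, 21.5 and 16.0 in WT MEFs (log2 fold change 2.63 ± 0.60, adjusted p = 0.000497). The Mfn2-/- libraries lay above all WT libraries on both days. The predicted gene Gm12454 covers 9.29% of the exon bases of Car9 on the opposite strand, and Gm17035 and Gm2895 cover 8.43% of those of Ndrg1, with the same limit on strand.

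Ndrg1 encodes a stress-responsive protein that is induced by hypoxia in many cell types (ENSMUSG00000005125, chr15:66929318-66969640). Before differentiation its difference from the WT libraries beside each line had opposite signs in the lines. At day -2 it had 2778, 2947 and 2609.6 normalised counts in Mfn2-/- MEFs, against 653, 669 and 687 in WT libraries D to F (log2 fold change 2.05 ± 0.46, adjusted p = 0.000516). Undifferentiated Mfn1-/- MEFs (day -2) had 974, 1387 and 1226, against 2056, 1967 and 2553 in WT libraries A to C, groups that did not overlap, with a log2 fold change of -0.88 that was not called (adjusted p = 0.140). The knockout effects, each against its own WT set, differed by -2.93 ± 0.65 (Mfn1-/- minus Mfn2-/-, adjusted p = 0.000828). On values rescaled across all 36 libraries, Ndrg1 averaged 1913 at day -2 in WT libraries A to C but 930 in D to F. Mfn1-/- MEFs averaged 1012 on that scale, so the negative sign held against WT libraries A to C and not against D to F. Over alternatives the Mfn1-/- log2 fold change ran from -0.99 to -0.41 and its adjusted p from 0.00218 to 0.446. The lowest was in a fit of the 6 libraries alone, where Ndrg1 was called lower. At day 0 Ndrg1 had 1275, 1969 and 1417 in Mfn1-/- MEFs, against 3468, 2446 and 2813 in WT MEFs (log2 fold change -0.91, adjusted p = 0.132, or 0.00391 in a fit of these libraries alone). At day +3 it had 601, 1245 and 295 in Mfn1-/- MEFs, against 2209.9, 1964 and 774 in WT MEFs (-1.31, adjusted p = 0.0290). It was called lower then without WT library C (adjusted p = 0.00551) or without Mfn1-/- library B (0.0038).

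At day +8 Ndrg1 had 9773, 7876 and 1529.7 normalised counts in the libraries labelled Mfn1-/-, against 1405, 1185 and 1386 in WT MEFs. All 3 lay above the WT range, library C only just (log2 fold change 1.89 ± 0.46, adjusted p = 0.000828). The call was lost in a fit of these 6 libraries alone (adjusted p = 0.0263) and without library A of the line (0.0161), and the range over alternatives was 3.74e-07 to 0.0263. Ndrg1 had 2553, 2926 and 2777 in Mfn2-/- MEFs at day +8, against 805, 848 and 742 in WT MEFs (log2 fold change 1.78 ± 0.46, adjusted p = 0.0019). These groups were well apart.

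Library C of the line labelled Mfn1-/- at day +8 stood apart from libraries A and B, with the lowest Car9, Egln3, Egln1, Epas1 and Ndrg1 of the 3. Its summed adipocyte markers, 185768 normalised counts, were the highest of the 3, against 183290 in library A and 163794 in library B. WT library C of that day also had the lowest Car9, Egln3, Egln1 and Epas1 of its group (3.33, 66.0, 733 and 26.7 normalised counts). It did not have the lowest Ndrg1. With Mfn1-/- library C left out and WT library C kept, the same 5 genes were called. Their log2 fold changes were then 7.34 for Car9, 6.13 for Egln3, 3.58 for Epas1, 3.20 for Egln1 and 2.73 for Ndrg1.

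**Figure D3:**
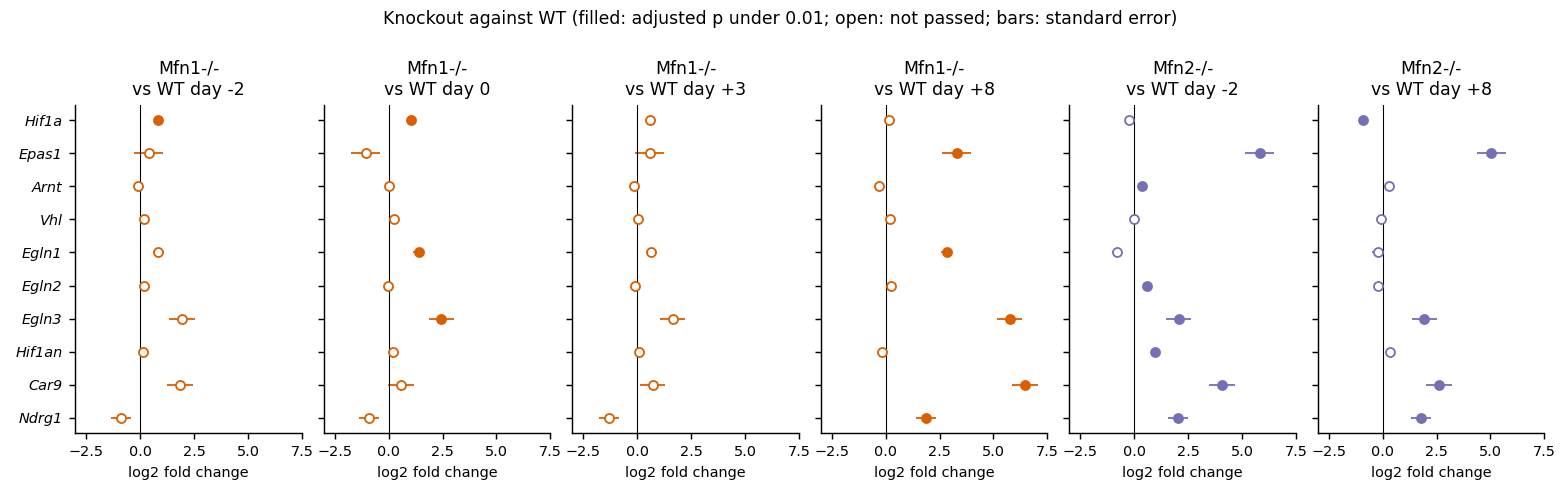
Log2 fold change (knockout over WT) of the 10 genes in the 6 comparisons, with standard errors. Filled points passed the test (adjusted p under 0.01) and open points did not. The day +8 panel of the Mfn1-/- line shows Car9 at 6.44 and Egln3 at 5.75, and the day -2 panel of Mfn2-/- MEFs shows Epas1 at 5.82.

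The course over differentiation was compared on values rescaled across all 36 libraries, since the deposited scale moved the median of all genes by -0.39 to 0.29 (log2) between consecutive days. In Mfn1-/- MEFs none of the 10 genes was called at day 0 against day -2, where 0.112% of all genes were, or at day +3 against day 0, where 17.7% were (2 members each had an unadjusted p under 0.05 by limma, and edgeR and DESeq2 called 0). At day +8 against day +3, 6 were called, against 34% of all genes. Car9 rose by 6.49, Epas1 by 4.62, Egln3 by 3.66, Ndrg1 by 3.21 and Egln1 by 2.20 on the log2 scale, while Hif1a fell by 0.72 (adjusted p = 0.00458). The Hif1a groups of day +8 and day +3 overlapped, and that call was lost under 4 alternatives (adjusted p up to 0.181). The Ndrg1 call was lost in a fit of the libraries compared alone (adjusted p = 0.0171). Against day -2 the 5 genes that rose were called as well (43.2% of all genes), Epas1 by 6.43 and Car9 by 6.30, and Ndrg1 again not in a fit of the libraries compared alone (adjusted p = 0.0220).

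**Figure D4:**
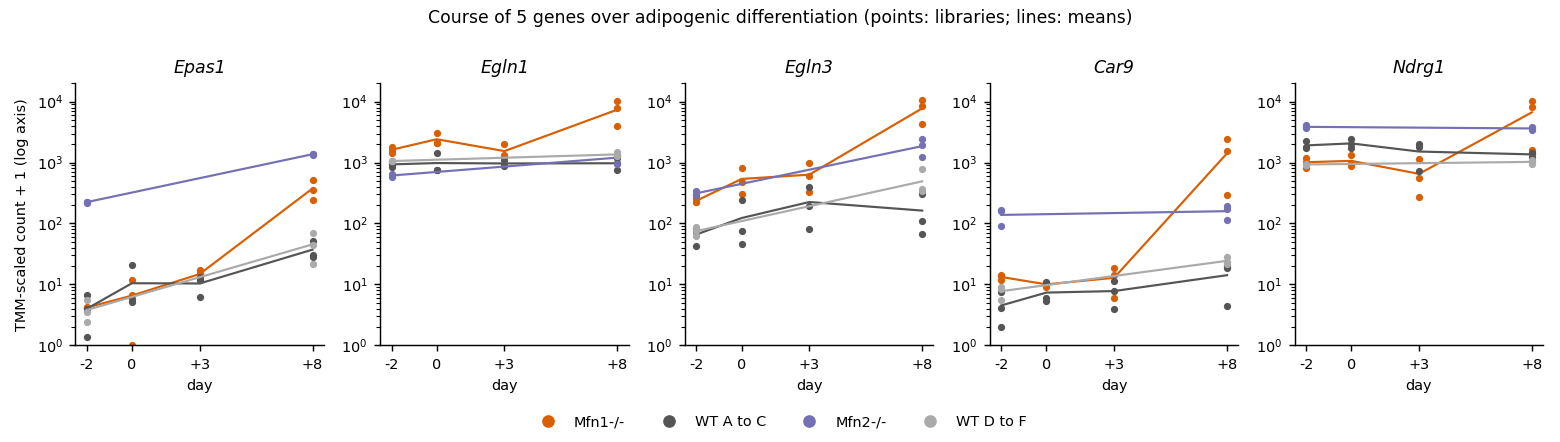
TMM-scaled count + 1 (log axis) of Epas1, Egln1, Egln3, Car9 and Ndrg1 by day, with libraries as points and means as lines for Mfn1-/-, WT A to C, Mfn2-/- and WT D to F. The Mfn1-/- line has Car9 means between 8.98 and 12.2 until day +3 and stands at 1419 at day +8.

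WT libraries A to C changed little. None of the 10 genes was called at day 0 against day -2 (2.86% of all genes, 1 member with an unadjusted p under 0.05 by limma), at day +3 against day 0 (11.4%, 0 members) or at day +8 against day +3 (6.18%, 2 members). For these 3 steps edgeR called 0, and DESeq2 called 0, 0 and 1. At day +8 against day -2, 1 was called, against 15.3% of all genes: Epas1 averaged 36.1 ± 13.3 TMM-scaled counts at day +8, against 2.96 ± 2.60 at day -2 (log2 fold change 3.44 ± 0.63, adjusted p = 0.000137). In WT libraries D to F 2 were called (25.4% of all genes), Epas1 (3.51) and Egln3 (2.62). Mfn2-/- MEFs had 5 called genes (17.6% of all genes): Epas1 rose by 2.62, Egln3 by 2.53 and Egln1 by 0.96, and Egln2 fell by 0.63 and Hif1an by 0.58. The calls of Egln1, Egln2 and Egln3 were lost when some single libraries were left out (adjusted p up to 0.0297, 0.0126 and 0.011). Epas1 was thus the 1 member called at day +8 against day -2 in all 4 series of libraries.

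The difference between these changes was tested directly, as the knockout effect at day +8 minus that at day -2. For the line labelled Mfn1-/-, 4 of the 10 genes were called, against 26.7% of all genes: Car9 (4.61 ± 0.85, adjusted p = 7.99e-05), Egln3 (3.81 ± 0.82), Ndrg1 (2.77 ± 0.65, adjusted p = 0.0013) and Egln1 (1.99 ± 0.36), all with a larger effect at day +8. The Ndrg1 call was lost in a fit of the libraries compared alone (adjusted p = 0.0137), and Epas1, at 2.90 ± 0.95, was not called (adjusted p = 0.0158). For Mfn2-/- MEFs 1 was called, against 15.5% of all genes: Egln2, whose effect was smaller at day +8 (-0.78 ± 0.20, adjusted p = 0.00422), a call lost when any of 6 libraries was left out (adjusted p up to 0.0178). Between the lines, 5 effects differed at day -2, against 20.9% of all genes, and 5 at day +8, against 37%. At day -2 the effect on Hif1a and Egln1 was higher in Mfn1-/- MEFs than in Mfn2-/- MEFs, by 1.08 and 1.63, and that on Epas1, Ndrg1 and Hif1an lower, by -5.42, -2.93 and -0.81. At day +8 the effect on Car9 (3.82), Egln3 (3.81), Egln1 (3.06) and Hif1a (1.07) was higher under the Mfn1-/- label and that on Arnt lower (-0.60). The Hif1a difference was lost without single libraries at day -2 (adjusted p up to 0.0142) and, at day +8, in a fit of the libraries compared alone (0.0111) and without Mfn1-/- library B (0.0160).

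The wider pathway was described by lists chosen with earlier results of these data known. The lists share genes, so their counts are not separate. For example, the target list also holds the dioxygenases P4ha1, P4ha2, Plod2, Kdm4b and Jmjd6. It holds Slc16a3 and Car12 of the carbonic anhydrases and pH transporters, and Cited2 of the partners and regulators. Of 35 listed HIF targets tested, 11 were called higher and 3 lower in Mfn1-/- MEFs at day -2, 15 and 3 at day 0, 4 and 6 at day +3, and 28 and 2 at day +8 in the libraries so labelled, where 22.4%, 21.5%, 21.5% and 50.2% of all genes were called. For Mfn2-/- MEFs the counts were 6 higher and 9 lower at day -2 and 8 and 9 at day +8, where 35.5% and 38.1% of all genes were called. The list's median log2 fold change was 0.54, 0.83, 0.20 and 1.56 on the 4 days in that order for the Mfn1-/- line, and -0.09 and 0.04 at days -2 and +8 for Mfn2-/- MEFs, where all genes tested had medians between -0.07 and 0.00. Slc16a3, the lactate exporter MCT4, was higher on every day in both lines, with 846 normalised counts in Mfn1-/- MEFs at day -2 against 48.8 in WT MEFs (log2 fold change 4.32), and 2989 in Mfn2-/- MEFs against 55.9 in WT MEFs (5.72). Bnip3, a mitophagy receptor, averaged 735 in Mfn1-/- MEFs at day -2 and 245 in WT MEFs (log2 fold change 1.53), but 40.0 in Mfn2-/- MEFs and 202 in WT MEFs (-2.31). Pgk1, a glycolytic kinase, was also lower in Mfn2-/- MEFs at day -2 (1811 against 7456 in WT libraries D to F, -2.04). WT libraries A to C averaged 2972 on that day, on a scale set separately. Pgk1 in Mfn2-/- MEFs was not tested against them. Angptl4, an inhibitor of lipoprotein lipase, averaged 7361 at day +8 in the libraries labelled Mfn1-/-, against 297 in WT MEFs (4.73), but 26.3 in Mfn2-/- MEFs and 782 in WT MEFs (-5.07). Angptl4 is also known as a target of PPAR receptors. Against WT libraries D to F at day -2, Car9 and Egln3 were called higher in Mfn2-/- MEFs, and Bnip3 and Pgk1 lower.

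**Figure D5:**
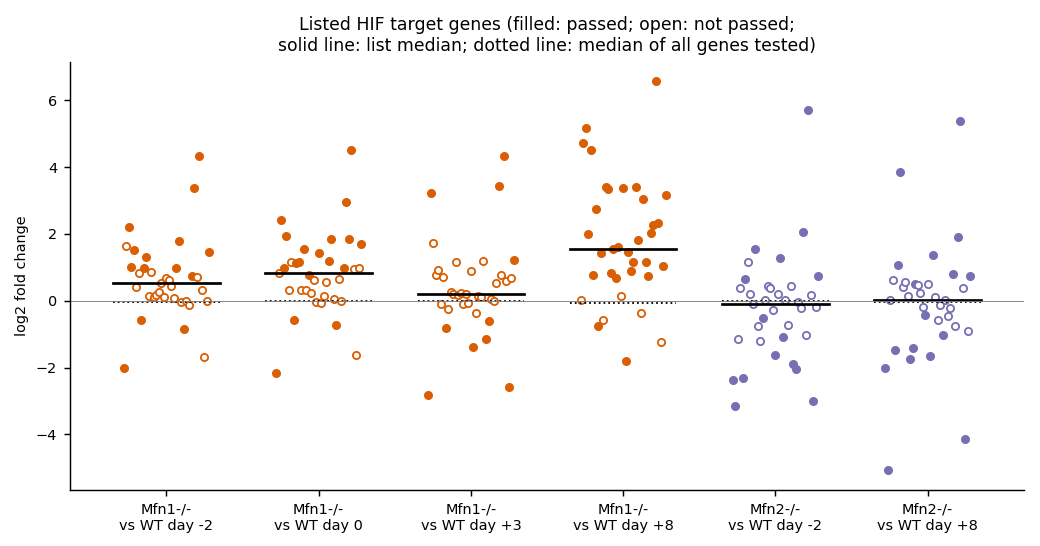
Log2 fold change (knockout over WT) of the 35 listed HIF targets in the 6 comparisons. Filled points passed the test and open points did not, the solid line is the list's median and the dotted line the median of all genes tested. At day +8 of the Mfn1-/- line the list's median is 1.56, while in Mfn2-/- MEFs it is -0.09 at day -2 and 0.04 at day +8.

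Of 20 listed partners and regulators of HIF, 0 were higher and 3 lower in Mfn1-/- MEFs at day -2, 1 and 4 at day 0, 0 and 2 at day +3, and 5 and 7 at day +8 under that label, where 22.4%, 21.5%, 21.5% and 50.2% of all genes were called. For Mfn2-/- MEFs 3 were higher and 4 lower at day -2, and 6 and 5 at day +8, where 35.5% and 38.1% of all genes were called. Cul2, the cullin on which the VHL ligase is built, had a log2 fold change of -0.73 in Mfn1-/- MEFs at day -2, and of -0.85 at day -2 and -0.56 at day +8 in Mfn2-/- MEFs, all called lower, whereas Vhl itself was not called. Arnt2, a paralogue of Arnt, averaged 264 normalised counts at day +8 in the libraries labelled Mfn1-/-, against 1894 in WT MEFs (-2.88), and 311 in Mfn2-/- MEFs and 978 in WT MEFs (-1.65). Of 25 other 2-oxoglutarate dioxygenases, the enzyme class of EGLN and FIH, 11 were higher and 2 lower at day +8 in the libraries labelled Mfn1-/-, and 2 were higher and 4 lower in Mfn2-/- MEFs, where 50.2% and 38.1% of all genes were called. Kdm5b, a histone demethylase, was higher in Mfn1-/- MEFs at day -2 (1.52) and lower in Mfn2-/- MEFs at day +8 (-1.09). Of 10 listed carbonic anhydrases and pH transporters tested, 6 were higher and 1 lower at day +8 in the libraries labelled Mfn1-/-, and 4 and 2 in Mfn2-/- MEFs, beside the same 50.2% and 38.1% of all genes. Car12, the other cell-surface carbonic anhydrase regulated by HIF, averaged 204 in the libraries labelled Mfn1-/- at day +8 against 27.2 in WT MEFs (2.74), and 201 in Mfn2-/- MEFs against 12.9 in WT MEFs (3.85). Among the 5 other NDRG and SGK genes, 2 were called higher and 1 lower in Mfn1-/- MEFs at day -2, where 22.4% of all genes were called. Ndrg2 was higher there (505 against 109 in WT MEFs, 2.27) and Ndrg3 lower (-0.66). In Mfn2-/- MEFs at day -2, 1 was called higher (Sgk3, 5.83) and 1 lower (Sgk1, -2.48), against 35.5% of all genes.

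Across the 12 group means of TMM-scaled log2 values, Epas1, Car9 and Egln3 had the widest ranges of the members (8.71, 8.05 and 6.84). Among 10422 other genes with a mean of at least 100, those most like Epas1 were Osgep, Ring1 and Pim3 (Pearson r = 0.96, 0.94 and 0.93). Those most like Egln3 were Txndc12, Ak4 and Clybl (0.97, 0.95 and 0.95). These values describe 12 points that share lines, days and scaling.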

How the data were processed

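Bulk RNA was sequenced in 36 libraries from WT, Mfn1-/- and Mfn2-/- MEFs. The authors trimmed reads with cutadapt, aligned them to GRCm38 with STAR, sorted with SAMtools and counted per gene with featureCounts (versions are not given in the sources used here). The deposited table holds normalised counts, a signal made by dividing each library's gene counts by a size factor, with the scale set separately in 6 blocks of 6 libraries, 1 per day and knockout line. Whole reads were recovered from the steps of these values (100% of values within 0.01 of a whole read in every library). The symbols repeated in the table were 19 in number, each on 64 to 729 identical lines, and were kept once. Columns of the Mfn2-/- libraries carry letters A to C, but their labels carry D to F, and they were used by group only. The deposited tables of the authors' own comparisons were not used.

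The test was limma 3.58.1 (R 4.3.3, trend and robust) on log2(normalised count + 1) with 1 mean for each of 12 groups and a shared spread, over the 14293 genes that reached 10 in 3 or more libraries, called at an adjusted p (Benjamini-Hochberg) under 0.01. Day comparisons used TMM rescaling. edgeR 4.0.16 and DESeq2 1.42.0 on the recovered reads were alternatives. The labels give no culture batch. The p-values rest on 1 spread per gene, that between libraries within a group, shared over all 12 groups. They do not rest on the spread of the compared groups alone, and the libraries of a group come from 1 line. Loci and exon lengths are from GENCODE M21 (GRCm38), where 14733 symbols matched 1 gene. Exact 95% intervals cover counting error only, since reads are not independent molecules.

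Members, lists and tests were chosen with earlier results of these data known. The genes named are all 10 members, Mfn1 and Mfn2, up to 3 called genes of each list in each direction and comparison with a mean of at least 100, and the 3 genes most like the 3 members of widest range (those for Car9 are not reported here). Alternatives were pseudocounts of 0.5 and 5, no filter, a filter of 50, the other scaling, the libraries compared alone, all 6 WT libraries of the day, each library left out and a replicate block. Letters were read as pairing Mfn1-/- and WT libraries on days +3 and +8, where the deviations of every same-lettered pair correlated by over 0.1 (0.184 to 0.542), and not on days -2 and 0 (0.0428 to 0.223). These ranges overlap, and different letters correlated by -0.264 to 0.102 on days -2 and 0, so an absence of pairing there was not shown. The main test used no pairing on any day. Listed genes that did not match the table were not analysed here. Calculations were tested on simulated data.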

Additional observations from a re-analysis of the deposited data

Results flagged for a closer look

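For 4 genes the effect under the Mfn1-/- label was larger at day +8 than at day -2 by the test of the difference itself (log2 scale): Car9 (4.61), Egln3 (3.81), Ndrg1 (2.77) and Egln1 (1.99). The Mfn1 RNA of those day +8 libraries was at the WT level. For Egln2 the Mfn2-/- effect was smaller at day +8 than at day -2 (-0.78).

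The effects of the lines differed from each other (Mfn1-/- minus Mfn2-/-) at day -2 for Hif1a (1.08), Egln1 (1.63), Hif1an (-0.81), Ndrg1 (-2.93) and Epas1 (-5.42). At day +8 they differed for Car9 (3.82), Egln3 (3.81), Egln1 (3.06), Hif1a (1.07) and Arnt (-0.60).

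Among the 6 WT libraries at day +8, Car9 was far lower in library C (3.33 normalised counts) than in the other 5, the gap to the nearest being 0.764 of the whole range. The 10 genes were checked in this way on 2 days, and chance marks about 1 in 20 such groups.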

How the results depend on the processing

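No member changed direction in a call under any alternative run: over the 20 comparisons, 3094 of the gene values kept their side of the threshold, 68 moved past it and 48 no longer passed it. The number of members called moved by over 1.5 times as follows. For Mfn1-/- against WT at day -2 (1 called) it was 2 with a filter of 50, 4 in a fit of the 6 libraries alone, 2 against all 6 WT libraries, 3 with DESeq2 and 3 with the replicate block. The block added Egln3 (adjusted p = 0.00768) and Car9 (0.00197). On that day the letters were not read as pairing, although same-lettered pairs correlated by 0.0428, 0.207 and 0.223. At day +3 (0 called) edgeR and DESeq2 gave 1 each and leaving out a library 0 to 1. On the deposited scale, whose medians drift between days, Mfn1-/- MEFs gave 1 at day 0 against -2 and 3 at day +3 against 0 (0 each on the rescaled values, 0 to 1 at the second step without a library), and WT libraries A to C gave 1 at each of these steps (0 each). For WT libraries A to C, day +8 against +3 (0) gave 1 with a pseudocount of 5 and 1 with DESeq2, and day +8 against -2 (1) gave 1 to 2 without a library. Mfn2-/- MEFs at day +8 against -2 (5) gave 3 to 4 without a library, and WT libraries D to F (2) gave 6 in a fit of their own. The change of the Mfn2-/- effect between days (1) gave 2 with a filter of 50, 5 in a fit of the libraries compared alone, 2 with DESeq2 and 0 to 1 without a library. On the days when the letters were read as pairing the samples, the block gave 0 members at day +3 and 5 at day +8. It changed no other call of a knockout against WT, and it added Epas1 to the change of the Mfn1-/- effect between days -2 and +8 (adjusted p = 0.00801). Over all genes, DESeq2 called 64 against 16 by limma for Mfn1-/- at day 0 against -2, 800 against 409 for WT libraries A to C at the same step and 1521 against 883 at day +8 against +3. Reads limit Epas1 and Car9 in WT and undifferentiated Mfn1-/- MEFs, where as few as 6 reads stood in a group. No paired analysis was possible for Mfn2-/- MEFs because their columns carry letters that no Mfn2-/- label has.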
